A study of Mus musculus with 3 samples.

Results

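The cells described here are mouse mammary basal cells that carried transcripts of at least 2 of the 6 genes Kctd4, Ackr4, Ntn4, Osr1, Mir143hg and Fbxl22, called set D, and more genes of set D than of any of 3 other basal gene sets of the same size, called A, B and C. They numbered 127 of 10939 basal cells, and of 26320 cells kept in all. Set A held Gfra2, Scube3, Dkk3, Grik3, Lgr5 and Cxcl14, set B held Serpinb11, Vcan, Igfbp2, Ccnd2, Capn6 and Moxd1, and set C held Cpm, Mmp2, Eln, Fmod, Il17b and Dlk2. A cell counted as basal when it held at least 5 unique molecular identifiers (UMIs, 1 per captured transcript molecule) of Krt5, Krt14, Krt17 and Acta2 together, and at least 3 times as many as of either luminal gene group. The luminal groups were Csn3, Elf5, Kit and Aldh1a3 for luminal progenitors, and Prlr, Areg, Pgr, Esr1 and Cited1 for hormone-responsive cells. The 127 cells are called set D cells below, and the other 10812 basal cells are their reference.

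The study profiled epithelial cells sorted from the mammary gland of untreated female FVB/NJ mice, an inbred strain, at 10 weeks of age, as 3 droplet-based single-cell libraries in 1 group. The number 4 glands of 4 mice were pooled, digested with collagenase and trypsin, and sorted as live epithelial cells on EpCAM, CD49f, CD31, CD45 and Ter119. No allele or treatment was tested, so every comparison is between cells within a library. The labels do not say whether the libraries share a pool of mice, so p-values measure only the spread between libraries, which may be technical.

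Mammary basal cells form the outer layer of the ducts. They combine keratins of stratified epithelium with the contractile proteins of smooth muscle, and they contract under oxytocin to expel milk. They also lay down the basement membrane that separates the epithelium from the stroma. Of the set D genes, Ntn4 encodes netrin-4, a laminin-binding protein of basement membranes. Ackr4 encodes an atypical receptor that takes up chemokines without G protein signalling. Osr1 encodes a zinc finger transcription factor of embryonic urogenital and limb mesenchyme, and Kctd4 a protein of the BTB domain family. Fbxl22 encodes an F-box protein of the sarcomere in heart and skeletal muscle. Mir143hg is the host transcript of a microRNA pair that is abundant in smooth muscle, and its UMIs measure the host transcript and not the microRNAs.

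On the mouse build GRCm38, Kctd4 lies at chr14:75955009-75966206 and Osr1 at chr12:9570116-9581500, both on the plus strand. Ackr4 lies at chr9:104084157-104126933 and Fbxl22 at chr9:66508459-66514593, both on the minus strand. Ntn4 lies at chr10:93640681-93747207 on the plus strand. The 5 genes are annotated as protein coding, and their symbols were matched to GENCODE. Promoters of 3 of the 6 genes were in the RefSeq table used (build GRCm38.p6, 250 bases before to 50 after the start), and they are shown because genes chosen as a set invite a look at shared motifs. Capitals mark matches to the CArG box, the site of serum response factor, and to MCAT (CATTCC), the site of TEAD factors. Both motifs are known from smooth muscle promoters. They were searched on both strands together with the E-box CAGGTG, and no 2 of these motifs overlapped in the printed sequences.
Ackr4, chr9:104126594-104126893, minus strand: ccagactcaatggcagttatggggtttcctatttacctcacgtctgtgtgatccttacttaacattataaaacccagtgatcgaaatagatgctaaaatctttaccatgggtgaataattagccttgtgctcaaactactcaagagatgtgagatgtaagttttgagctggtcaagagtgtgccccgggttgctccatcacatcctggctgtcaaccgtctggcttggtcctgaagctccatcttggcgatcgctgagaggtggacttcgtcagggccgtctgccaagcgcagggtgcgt
Ntn4, chr10:93640799-93641098, plus strand: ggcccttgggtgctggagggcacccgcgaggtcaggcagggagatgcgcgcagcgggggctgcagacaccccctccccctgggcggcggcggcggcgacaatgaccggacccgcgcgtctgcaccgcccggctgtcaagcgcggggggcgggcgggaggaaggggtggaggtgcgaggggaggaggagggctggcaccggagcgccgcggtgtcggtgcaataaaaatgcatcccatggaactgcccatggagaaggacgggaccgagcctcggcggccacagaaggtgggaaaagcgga
Fbxl22, chr9:66514544-66514843, minus strand: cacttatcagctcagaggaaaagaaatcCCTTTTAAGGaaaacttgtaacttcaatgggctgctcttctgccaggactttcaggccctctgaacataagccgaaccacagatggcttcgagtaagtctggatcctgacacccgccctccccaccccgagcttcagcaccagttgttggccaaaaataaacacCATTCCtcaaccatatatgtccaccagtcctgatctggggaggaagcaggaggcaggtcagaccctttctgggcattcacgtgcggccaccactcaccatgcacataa
The Fbxl22 window held 1 CArG box, starting at position -222 relative to the start, and 1 MCAT motif, starting at position -58. Neither motif, nor CAGGTG, was in the Ackr4 or Ntn4 window. Of 32851 mouse promoter windows of this length, 1.63% held a CArG box, 14.7% MCAT and 20.2% CAGGTG.

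Set D cells were unevenly spread over the libraries. Library 1 held 73 of them among 1681 basal cells, which was 4.34% (95% Clopper-Pearson interval 3.42 to 5.43%). Library 2 held 36 among 4827, or 0.746% (0.523 to 1.03%), and library 3 held 18 among 4431, or 0.406% (0.241 to 0.641%). The mean share was 1.83% ± 2.18 (SD, n = 3 libraries), and it was 0.576% without library 1. These intervals cover counting error only. The order of the libraries was the same when cells were thinned to 1500 UMIs, with shares of 3.16%, 0.834% and 0.331% in libraries 1, 2 and 3. Cells below that depth were left out there, which were 343 of 1681, 672 of 4827 and 1377 of 4431 basal cells.

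The competition with the other sets removed most cells that carried set D genes. At least 2 set D genes were detected in 1074 basal cells, which were 284, 614 and 176 cells in libraries 1, 2 and 3, or 16.9%, 12.7% and 3.97% of basal cells. Only 11.8% of these 1074 were set D cells. Another 289 tied with another set and 658 were outnumbered by one, most often by set C, in 422 cells. Set C was detected at 2 genes or more in 36.0% of basal cells of library 1, against 76.8% in library 2 and 66.6% in library 3. Set A outnumbered set D in 63, 69 and 33 carriers of libraries 1, 2 and 3, and set C in 32, 317 and 73. The share of carriers that met the whole rule was 25.7% in library 1, 5.86% in library 2 and 10.2% in library 3.

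**Figure D1:**
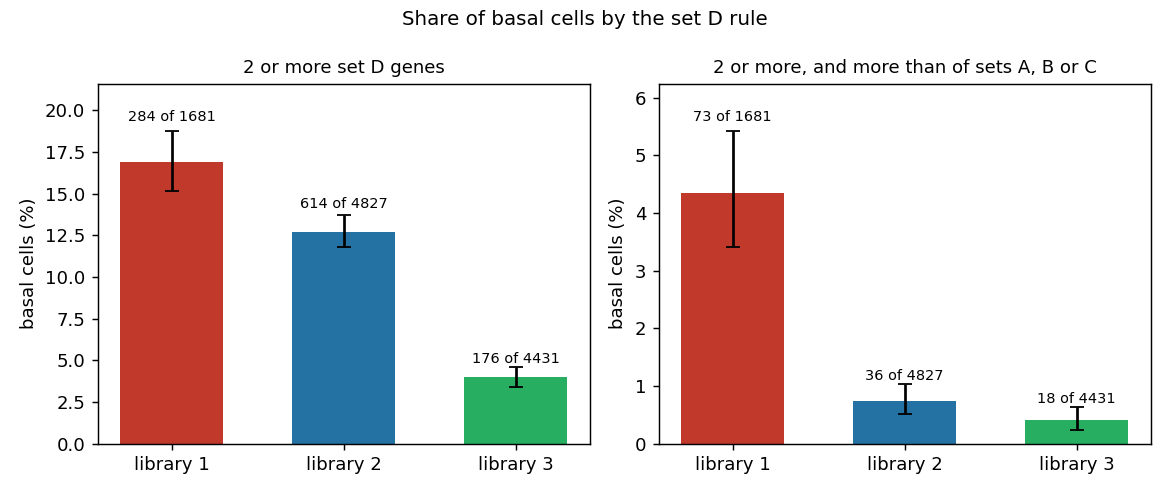
Share of basal cells (percent, with 95% Clopper-Pearson intervals) in each library that held 2 or more set D genes (left) and that met the whole set D rule (right). Carriers made up 16.9%, 12.7% and 3.97% of basal cells, while set D cells made up 4.34%, 0.746% and 0.406%.

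Among the 127 set D cells, 60 held exactly 2 set D genes, 49 held 3, 17 held 4 and 1 held 5, and no cell held all 6. The most frequent pair was Osr1 with Mir143hg, in 35 cells, followed by Ntn4 with Mir143hg in 32 and Kctd4 with Mir143hg in 30. The rule has a threshold, and 59 cells lay just inside it with 2 set D genes and 1 gene of the next set. In those cells the 6 genes summed to 1242 CPM (counts scaled to a common total of UMIs), with a median depth of 1742 UMIs per cell. Just outside lay 216 cells with 2 set D genes tied with another set, at 974 CPM and a median of 2170 UMIs.

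The levels of the set D genes chose the cells and are given as a description. Kctd4 was detected in 46.6%, 47.2% and 33.3% of set D cells of libraries 1, 2 and 3, against 8.71%, 7.45% and 4.33% of other basal cells. Mir143hg was detected in 57.5%, 58.3% and 66.7% of set D cells, against 10.4%, 10.7% and 5.98% of other basal cells. It was the gene found in the most set D cells. Osr1 was detected in 50.7%, 47.2% and 66.7% of set D cells, against 11.1%, 14.7% and 10.97% of other basal cells. Ackr4, the least often detected, was found in 19.2%, 27.8% and 22.2% of set D cells, against 5.53%, 5.41% and 3.78% of other basal cells.

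Ntn4 and Fbxl22 varied most between libraries. Ntn4 was detected in 57.5%, 19.4% and 44.4% of set D cells, against 13.2%, 3.92% and 5.42% of other basal cells, so it was highest in library 1 in both classes. Fbxl22 was detected in 47.9% and 61.1% of set D cells of libraries 1 and 2, and in 0 of 18 set D cells of library 3, which has a 95% Clopper-Pearson upper limit of 18.5%. In other basal cells Fbxl22 was found in 9.20%, 15.8% and 3.06%, lowest in library 3 as well. The set D cells of library 3 were therefore chosen on the other 5 genes.

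All 6 genes averaged higher in basal cells than in either luminal class. Kctd4 averaged 36.4 ± 15.5 CPM over all basal cells, against 0.518 ± 0.305 CPM in luminal progenitors and 0.244 ± 0.259 CPM in hormone-responsive cells (SD, n = 3 libraries). Osr1 averaged 70.0 ± 4.76 CPM in basal cells, against 4.97 ± 2.38 CPM in luminal progenitors and 3.63 ± 2.26 CPM in hormone-responsive cells. The luminal classes differed for 2 other genes in library 1. Luminal progenitors there held Ntn4 at 19.8 CPM and Mir143hg at 13.5 CPM, against 3.64 and 0.728 CPM in hormone-responsive cells. Basal cells of that library held 83.4 and 80.2 CPM. Free RNA in the droplets can reach all cells, and its part in the luminal values was not tested. Luminal cells were deeper than basal cells (medians of 3222 UMIs in luminal progenitors and 1996 in basal cells).

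Within the basal layer the 6 genes did not follow each other across the other sets. Ntn4 averaged 62.3 ± 28.4 CPM in cells of set A, 13.5 ± 15.01 in set B and 23.9 ± 11.5 in set C. Mir143hg ran the other way, at 27.9 ± 12.2 CPM in set A, 56.8 ± 16.3 in set B and 61.4 ± 29.6 in set C. Osr1 averaged 47.2 ± 4.00, 60.4 ± 16.0 and 74.6 ± 9.21 CPM in sets A, B and C, and Fbxl22 averaged 42.9 ± 25.0, 49.8 ± 40.1 and 46.9 ± 38.3 CPM. These values describe the 3 libraries, and no difference between the sets was tested.

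The label of a distinct cell group was checked by choosing cells on 5 of the 6 genes and reading the sixth. Mir143hg was found in 20% of 65 cells chosen on the other 5 genes (95% Clopper-Pearson interval 11.1 to 31.8%), against 9.26% of the rest of the basal cells. Kctd4 was found in 11.4% of 79 such cells (5.34 to 20.5%), against 6.78% of the rest. Ntn4 was found in 10.3% against 6.33%, Osr1 in 17.6% against 13.1%, Fbxl22 in 12.5% against 9.99%, and Ackr4 in 4.81% against 4.97%. In this check the pooled interval lay above the share in the rest of the basal cells for Mir143hg only. Library 1 held 38 of those 65 cells, and within each library the Mir143hg interval included the share of the rest. A random 0.5 of the UMIs then chose the cells and the rest measured them, so each gene still took part in choosing its cells. Pooled over libraries, 5 of the 6 genes had an interval above the share of other basal cells. Mir143hg was then found in 26.1% of 88 set D cells (17.3 to 36.6%), against 5.30% of other basal cells, and Ntn4 in 15.9% (8.98 to 25.2%), against 3.68%. Osr1 was found in 14.8% (8.11 to 23.9%) against 7.51%, Fbxl22 in 13.6% (7.25 to 22.6%) against 6.11%, and Kctd4 in 9.09% (4.01 to 17.1%) against 3.74%. Ackr4 was found in 3.41% (0.709 to 9.64%), against 2.56% of other basal cells. A higher share here does not show a distinct group, since the same genes chose the cells. These shares pool the 3 libraries, and the intervals treat cells as independent, so they cover counting error only. Library 1 held 40 of the 88 set D cells and 1340 of the 9492 other basal cells. Within each library Mir143hg was found more often in set D cells than in other basal cells. Ntn4 was too, but in libraries 2 and 3 this rested on 1 cell each. Those were 1 of 29 set D cells (3.45% against 2.36%) and 1 of 19 (5.26% against 3.17%). Kctd4 was at 3.45% against 4.35% in library 2 and 0% against 2.40% in library 3. Osr1 was at 6.90% against 8.82% in library 2, and Fbxl22 at 0% against 1.62% in library 3. The spread between libraries was wide. Mir143hg averaged 267 ± 125 CPM in set D cells and 54.0 ± 20.4 CPM in other basal cells. Kctd4 averaged 64.1 ± 89.4 and 37.2 ± 15.2 CPM (SD, n = 3).

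**Figure D2:**
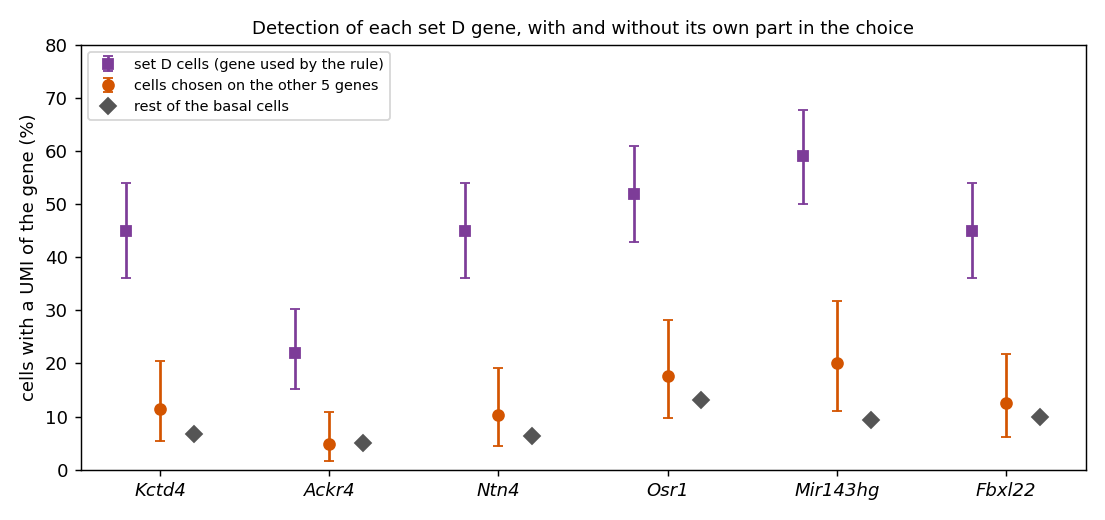
Percent of cells with a UMI of each set D gene, with 95% Clopper-Pearson intervals, in set D cells (squares), in cells chosen on the other 5 genes (circles) and in the rest of the basal cells (diamonds). Once a gene no longer took part in the choice, its share was closer to that of the rest of the basal cells. Only for Mir143hg did the interval pooled over libraries lie above it, at 20% against 9.26%. Within each library the Mir143hg interval included the share of the rest.

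Co-detection was read over all basal cells, within library and depth. The 15 pairs of set D genes had a median odds ratio of 1.23 for detection in the same cell (0.859 to 1.73), with 14 of 15 above 1. The pairs within set A had a median of 1.60, those within set B 1.69 and those within set C 1.54. Set D genes paired with set C genes at a median of 1.21, close to the value within set D, while they paired with sets A and B at 1.04 each. The median within set D was 1.60 in library 1, 1.18 in library 2 and 0.802 in library 3. Set D had the lowest median of the 4 sets, and the cells are named here by the rule and not as a cell type. Cells share a library and genes share cells, so the odds ratios are descriptions.

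**Figure D3:**
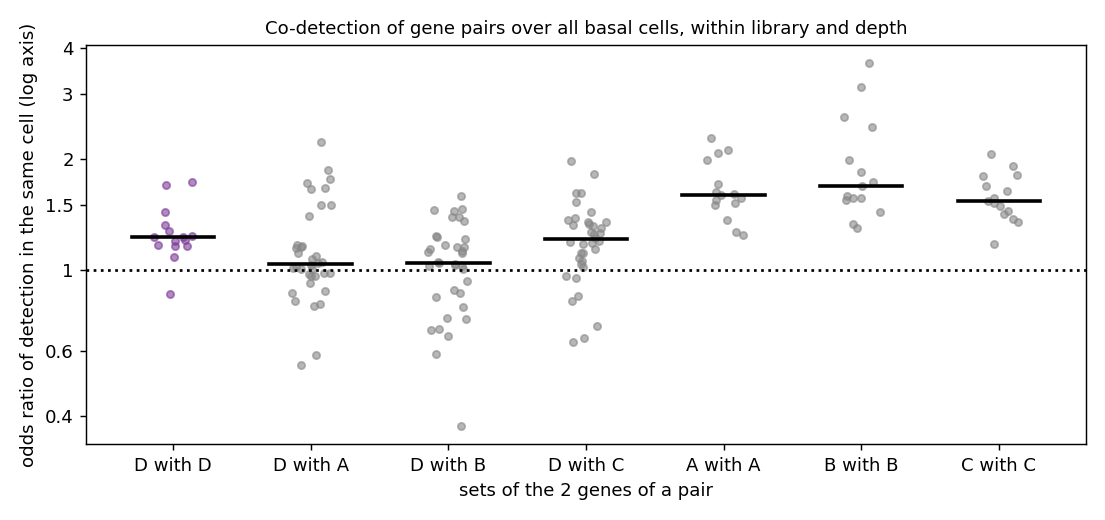
Odds ratios (log axis) for detection of 2 genes in the same basal cell, 1 point per gene pair, with black lines at the median of each pair of sets. Pairs within set D centred on 1.23, against 1.60, 1.69 and 1.54 within sets A, B and C, and 1.21 between sets D and C.

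Set D cells were basal by genes that the rule did not use. Myh11 averaged 1415 ± 196 CPM in set D cells and 1273 ± 226 CPM in other basal cells, and Mylk 1397 ± 273 and 1147 ± 271 CPM (SD, n = 3). Myh11 encodes a contractile protein, and Mylk encodes a kinase that acts on myosin. Oxtr, the oxytocin receptor, averaged 545 ± 88.5 CPM in set D cells and 381 ± 49.6 CPM in other basal cells, and Trp63, the master transcription factor of basal cells, 137 ± 80.2 and 183 ± 16.1 CPM. Median depth was 2224, 2139 and 1959 UMIs per set D cell in libraries 1, 2 and 3, against 2027, 2203 and 1763 UMIs per other basal cell. A high doublet score marked 5.48%, 11.1% and 5.56% of set D cells in libraries 1, 2 and 3. In other basal cells it marked 4.91%, 9.48% and 10.2%. Pooled over libraries the shares were 7.09% and 9.09%, and library 3 held 1 marked set D cell. Of the 10 fibroblast markers, Lum and Dpt were at 0 in set D cells, and Dcn had the most UMIs, 34. The list summed to between 143 and 435 CPM per library in set D cells, against 114 to 376 CPM in other basal cells. Of the 10 pericyte markers, Kcnj8, Higd1b, Ndufa4l2 and Vtn were at 0 in set D cells, while Mcam had 9 UMIs and Notch3 had 5. This list summed to 75.4, 0 and 163 CPM in set D cells of libraries 1, 2 and 3. In other basal cells it summed to 70.8, 62.2 and 78.0 CPM. All 8 adipocyte markers were at 0 in set D cells. UMIs of Top2a or Mki67, which mark dividing cells, were in 0 of 127 set D cells, with a Clopper-Pearson upper limit of 2.86%. They were in 2.81% of other basal cells, which lies below that limit, so no deficit of dividing cells is shown. By library the share in other basal cells was 1.37%, 3.49% and 2.61%. It was lowest in library 1, which held 73 of the set D cells. The difference was not tested.

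Gene expression was then compared between set D cells and all other basal cells, on UMIs summed per library and class. The 37 genes of the gates and sets were left out of the tests. Of 9920 genes tested, 30 (0.302%) were called at an adjusted p below 0.05 in edgeR's quasi-likelihood test and a 1.5-fold difference, 29 of them lower in set D cells (0.292%) and 1 higher (0.0101%). Before adjustment, 551 genes had a p below 0.05. The median log2 fold change over all genes was -0.14, and it was -0.01 when the other basal cells were matched to set D cells in depth, a fit that called 25 of 4108 genes (0.609%), 7 higher (0.17%) and 18 lower (0.438%). Of the 30 genes, 17 were also called with matched depth and 5 were not tested there. All 3 set D values lay below all 3 values of other basal cells for 21 of the 30. The 30 were called on these same values, and no such share over all genes tested is given, so this count is a description.

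The lower gene with the smallest adjusted p was Thbs1, and it fell in each library. Thbs1 (chr2:118111876-118127133), a matricellular glycoprotein released at sites of injury, reached 534, 340 and 541 CPM in set D cells of libraries 1, 2 and 3, against 1295, 1137 and 1203 CPM in other basal cells. The groups did not overlap, and the log2 fold change was -1.38 ± 0.31 (SD of the 3 libraries' log2 ratios; edgeR adjusted p = 1.19e-08). Thbs1 passed in 14 of the 15 other settings tried. Errfi1, a feedback inhibitor of the EGF receptor, had 540, 255 and 113 CPM in set D cells, against 945, 584 and 627 CPM in other basal cells. Its log2 fold change was -1.16 ± 0.87 (edgeR adjusted p = 0.000192). Its deficit was thus largest in library 3, with 5 UMIs in 18 cells.

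Metallothioneins, the cysteine-rich proteins that bind zinc and copper and rise under stress, were lower in each library. Mt1 reached 5135, 2346 and 2999 CPM in set D cells, against 9413, 4594 and 6159 CPM in other basal cells. The libraries differed in level and the groups overlapped, but within each library set D cells held about the same fraction, with a log2 fold change of -0.96 ± 0.08 (edgeR adjusted p = 3.99e-08). Mt2 had 3830, 1155 and 1804 CPM in set D cells, against 7517, 1854 and 3218 CPM in other basal cells, a log2 fold change of -0.84 ± 0.14 (edgeR adjusted p = 4.73e-05).

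Odc1, Fosl2, Zfp36l1, Tiparp, Tnfrsf12a and Adamts1 also fell. Odc1, the rate-limiting enzyme of polyamine synthesis, had 91.0, 85.1 and 45.1 CPM in set D cells, against 258, 242 and 188 CPM in other basal cells (log2 fold change -1.57 ± 0.31, edgeR adjusted p = 0.00158). Fosl2, an AP-1 transcription factor, had 127, 97.2 and 90.2 CPM in set D cells, against 295, 211 and 261 CPM in other basal cells (-1.24 ± 0.22, edgeR adjusted p = 0.0194). Neither pair of groups overlapped. Zfp36l1, which promotes decay of AU-rich mRNAs, had 1438, 1860 and 1511 CPM in set D cells, against 2193, 2848 and 3293 CPM in other basal cells (-0.76 ± 0.30, edgeR adjusted p = 0.00127). This gene was named after its values were seen. Tiparp, a target of the aryl hydrocarbon receptor, fell by 1.08 on the log2 scale, and Tnfrsf12a, the receptor of the cytokine TWEAK, by 1.18 (edgeR adjusted p = 0.00204 and 0.0082). Adamts1, a metalloprotease that cleaves proteoglycans, had 886, 134 and 361 CPM in set D cells, against 1420, 369 and 602 CPM in other basal cells, and fell by 0.85 (edgeR adjusted p = 0.0266). Itpkc, Plet1, Pxdc1 and Crispld2 complete the 12 genes named by rule, with log2 fold changes of -1.94, -1.85, -1.34 and -1.06. Itpkc, an inositol trisphosphate kinase, rested on 4, 2 and 2 UMIs in set D cells, and Plet1 on 17, 1 and 3.

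**Figure D4:**
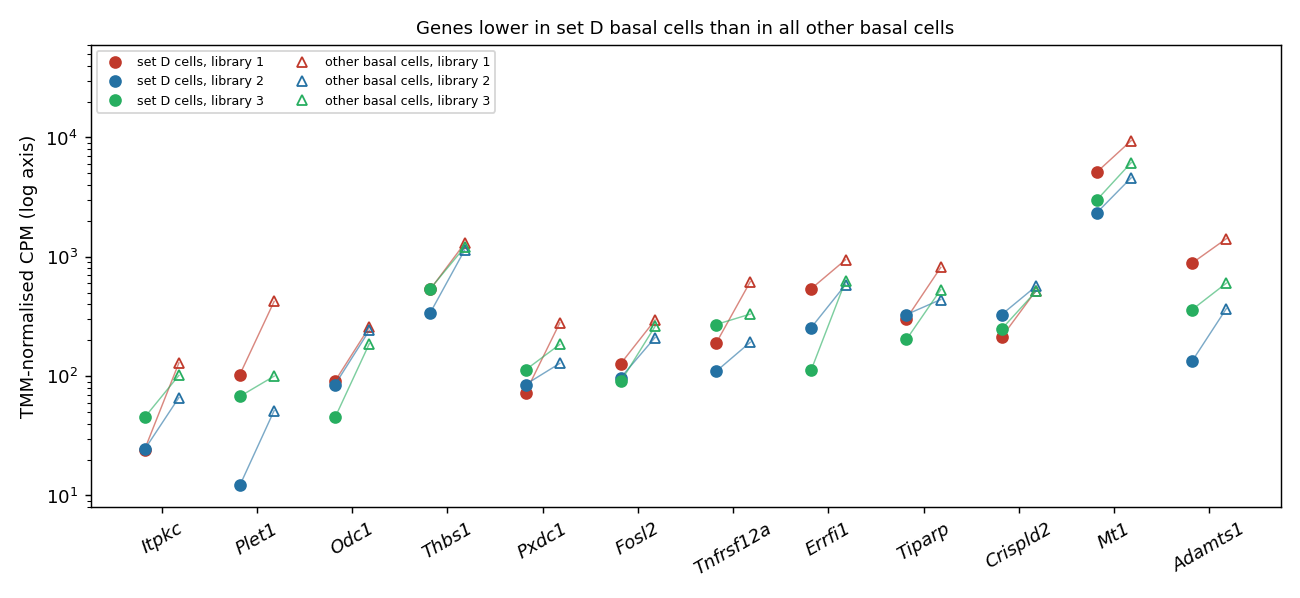
TMM-normalised CPM (log axis) of the 12 genes with the largest called decreases that were also called with matched depth, in set D cells (filled circles) and other basal cells (open triangles), with lines joining the 2 values of a library. Every line rises to the right because the rule that named these genes asked for 1 sign in all 3 libraries. The log2 fold changes ran from -1.94 for Itpkc to -0.85 for Adamts1.

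These calls rested on the 2 libraries with most set D cells. Without library 1, 3 of 11297 genes (0.0266%) were called, all lower, namely Thbs1 (-1.45), Errfi1 (-1.58) and Mt1 (-0.99), and without library 2, 3 genes, Fabp4, Cxcl1 and Cxcl2, so that none of the 12 passed there. When 0.5 of the UMIs chose the cells and the rest measured them, 41 of 7751 genes (0.529%) were called, all lower, among them Thbs1 (-1.37), Mt1 (-1.33) and Errfi1 (-1.25). Without library 3, which held 18 set D cells, 62 genes were called, and with the library left out of the model only Thbs1 passed (-1.36, edgeR adjusted p = 0.0384). The 12 genes were lower in set D cells in every one of these fits, which share cells with the fit that chose the genes. DESeq2 called 8 genes in all, which were Thbs1, Errfi1, Mt1, Mt2, Odc1, Crispld2 and Zfp36l1 lower and Txnip higher.

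Some calls rested on near absence in set D cells. Cxcl2, a neutrophil-attracting chemokine, had 1 UMI in set D cells of library 1 and 0 in libraries 2 and 3, against 185, 10.3 and 23.2 CPM in other basal cells. Fabp4, a fatty acid binding protein of adipocytes and capillaries, had 0 UMIs in set D cells, against 36.0 CPM in other basal cells, at least 3.43-fold lower given a floor of 3 UMIs over the group. Srxn1, a peroxiredoxin reductase, also had 0 UMIs in set D cells, and was at least 1.69-fold lower. Cyp51, a cholesterol synthesis enzyme, and Gch1, of tetrahydrobiopterin synthesis, had 3 and 1 UMIs in set D cells of library 1 and 0 in the others. These 2 and Srxn1 were chosen after their values were seen.

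The single gene called higher was Csn1s2a, a milk casein, with 6.07, 571 and 22.6 CPM in set D cells, against 2.79, 172 and 82.9 CPM in other basal cells. Its log2 fold change was 1.30 ± 1.89 (edgeR adjusted p = 0.0145). In library 2, 41 of its 47 UMIs came from 1 cell, which also held 54 UMIs of Csn2 and 42 of Csn1s1 among 4051 in all and had a high doublet score. Without library 2 the log2 fold change of Csn1s2a was -1.07, and with the highest doublet scores left out it was -0.79, so the direction turned in both. Csn1s1 was named after its values were seen.

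Among gene groups chosen for the tissue, few genes were called and most lists held none. A gene that was not called cannot be read as unchanged. On simulated counts this fit recovered 2 of 50 genes changed 1.5-fold, 13 of 50 changed 2-fold and 37 of 50 changed 4-fold. Of 25 heat shock and dissociation stress genes tested, 2 fell, Mt1 and Mt2, none rose, and 24 had a negative value. Over all 9920 genes tested, 0.292% were called lower, 61.3% had a negative value and the median was -0.14, against a median of -0.41 in this list. Hspa8, a constitutive chaperone that was not called, had 2828, 2139 and 1488 CPM in set D cells, against 4256, 2342 and 2252 CPM in other basal cells. Of 23 immediate-early genes 2 fell, Fosl2 and Ier3, with a median of -0.27. Fos itself had 3338, 4667 and 5164 CPM in set D cells, against 2826, 3990 and 5204 CPM in other basal cells, a log2 fold change of 0.16 with an edgeR adjusted p of 0.999.

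The following lists are read against the same 0.292% called lower, 61.3% negative and median of -0.14 over all genes. Of 12 glucocorticoid-induced genes 2 fell, Errfi1 and Slpi, with a median of -0.31. Of 11 chemokine genes 1 fell, Cxcl2, with a median of -0.58 and no positive value. Thbs1 was the 1 gene to fall of 25 of the interstitial matrix (median -0.24), Adamts1 of 19 matrix proteases and inhibitors (-0.42), Vegfa of 26 growth factor signals (-0.15) and Sfn of 13 basal keratins and stratified layer genes (-0.50). Sfn, a cell cycle regulator of stratified epithelium, had 698, 741 and 631 CPM in set D cells, against 1383, 952 and 1382 CPM in other basal cells (edgeR adjusted p = 0.0063).

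Mir143hg and Fbxl22 are known from muscle, and the contractile genes were read beside them. Actg2 and Lmod1 below fall outside the naming rule and were chosen after their values were seen. Of 27 contractile apparatus genes 0 were called by edgeR and 6 had a negative value, against 61.3% negative over all genes, and the median was 0.13 against -0.14. Actg2, the gamma actin of visceral smooth muscle, had 328, 207 and 383 CPM in set D cells, against 152, 225 and 226 CPM in other basal cells, a log2 fold change of 0.66 ± 0.64 (edgeR adjusted p = 0.459). It was called with matched depth, at 0.88 (edgeR adjusted p = 0.0391), and set D cells of library 2 were below their reference. Lmod1, an actin nucleator of smooth muscle, had 370, 316 and 225 CPM in set D cells, against 215, 208 and 227 CPM in other basal cells, and was not called in any setting.

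No gene was called among 24 of the basement membrane (median -0.19), 30 of netrin, slit, semaphorin and ephrin guidance (-0.17), 28 integrins and focal adhesion genes (-0.11), 27 of the Wnt pathway (-0.11), 12 of the Notch pathway (-0.28), 25 of the TGF-beta and BMP pathway (-0.34), 21 basal transcription factors (-0.02) or 13 proposed mammary stem cell markers (-0.11). Postn, a matrix protein of the interstitial list that was not called, had 1517, 948 and 789 CPM in set D cells, against 1307, 684 and 900 CPM in other basal cells. Krt15, a basal keratin, had 692, 462 and 383 CPM in set D cells, against 389, 358 and 260 CPM in other basal cells, a log2 fold change of 0.62 that was not called (edgeR adjusted p = 0.309) and was called with matched depth, at 0.79 (edgeR adjusted p = 0.0338).

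Set against cells that sets A, B and C claimed by the same rule, 7494 in all, set D cells differed in fewer genes. Of 8745 genes tested, 18 (0.206%) were called by edgeR, 16 lower (0.183%) and 2 higher (0.0229%), and 17 of the 30 genes called against all other basal cells were among them. Thbs1 had a log2 fold change of -1.34 (edgeR adjusted p = 5.78e-08), Mt1 of -0.89 (3.06e-06) and Errfi1 of -1.10 (0.000898). Adamts1 was at -0.76 and was not called (edgeR adjusted p = 0.0999). Without library 1, 3 genes were called, without library 2, 2 genes, and without library 3, 41 genes.

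The 1074 carriers of at least 2 set D genes, whatever else they held, gave a comparison that rests less on library 1. Against basal cells with fewer set D genes, edgeR called 78 of 10530 genes (0.741%), 73 lower (0.693%) and 5 higher (0.0475%). Of the 78 genes, 10 were among the 30 called for set D cells. All 29 genes that fell in set D cells had a negative value here, as did 50.5% of all genes tested. Every set D cell is also a carrier, and the 29 genes were called on those same cells. A shared call or sign is therefore partly built in, and these counts are a description. Mt1 was not called in carriers, with 4162, 3130 and 4512 CPM, against 10049, 4522 and 5861 CPM in the remaining basal cells (-0.73 ± 0.48, edgeR adjusted p = 0.55). Mt2 was not called either (-0.74, edgeR adjusted p = 0.539). Crispld2 was close to 0 (-0.08, edgeR adjusted p = 0.921), and in library 3 it was higher in carriers, at 616 CPM against 476 CPM. Without libraries 1, 2 and 3 in turn, 41, 183 and 163 genes were called. Carriers were not matched in depth to the remaining basal cells. Median depth was 1888, 2096 and 1701 UMIs in cells with 0 set D genes in libraries 1, 2 and 3. It was 2306, 2497.5 and 2062 UMIs in cells with 2, and higher still in cells with 3 or more. The part of depth in these calls was not tested. This comparison, and the genes named from it below, were chosen after the data were seen.

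Txnip, an inhibitor of thioredoxin and of glucose uptake, rose in carriers. It had 862, 617 and 516 CPM in carriers of libraries 1, 2 and 3, against 428, 404 and 298 CPM in the remaining basal cells. The groups did not overlap, with a log2 fold change of 0.80 ± 0.20 (edgeR adjusted p = 8.95e-06), and it was called with each library left out, from 0.67 to 0.91. In the 127 set D cells Txnip had 935, 717 and 474 CPM, against 531, 462 and 327 CPM in other basal cells, which missed the threshold (0.69, edgeR adjusted p = 0.0851). Fbxo32, the muscle atrophy ubiquitin ligase atrogin-1, had 511, 645 and 500 CPM in carriers, against 270, 435 and 337 CPM in the remaining basal cells (0.68, edgeR adjusted p = 0.000301). Synm, an intermediate filament protein of muscle, had 229, 184 and 156 CPM in carriers, against 111, 131 and 130 CPM in the remaining basal cells (0.61, edgeR adjusted p = 0.0171). Both fell short of 1.5-fold without library 1, at 0.57 and 0.43.

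Adamts1, Fosl1, Ptgs2, Ptx3, Cebpb and Slpi were among the genes that fell in carriers. Adamts1 had 541, 220 and 324 CPM in carriers, against 1547, 368 and 580 CPM in the remaining basal cells (-1.04, edgeR adjusted p = 0.0017), and was called with each library left out. Fosl1, an AP-1 factor, had 38.2, 37.6 and 45.3 CPM in carriers, against 177, 60.8 and 90.0 CPM in the remaining basal cells. Ptgs2, the inducible cyclooxygenase, had 14.0, 8.47 and 4.53 CPM in carriers, against 64.6, 14.3 and 10.2 CPM in the remaining basal cells. Ptx3, a secreted pentraxin of innate immunity, fell by 1.21 and Cebpb, a transcription factor of the acute phase response, by 0.65 on the log2 scale. Slpi, a secreted protease inhibitor, had 3154, 787 and 1331 CPM in carriers, against 6008, 1209 and 1888 CPM in the remaining basal cells (-0.69, edgeR adjusted p = 3.2e-06). Slpi, Thbs1 and Errfi1 kept their sign but not the 1.5-fold size without library 1, at -0.57, -0.39 and -0.41. In these genes the gap was widest in library 1, where the levels of the remaining basal cells were highest.

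Mt1, Txnip, Adamts1, Thbs1, Errfi1, Fos and Actg2 were read by the number of set D genes in a cell, within basal cells of 1500 to 3000 UMIs, since deeper cells detect more genes. Mt1 had 11594, 8526, 5383 and 2552 CPM in cells of library 1 with 0, 1, 2 and 3 or more set D genes. In library 2 it had 5209, 4175, 3078 and 1266 CPM, and in library 3 6337, 5278, 4632 and 2147 CPM. It was lower at each step in all 3 libraries. Txnip had 302, 491, 871 and 1064 CPM in library 1, 408, 694, 925 and 1097 CPM in library 2, and 220, 339, 568 and 963 CPM in library 3, higher at each step. Adamts1 had 1782, 1261, 761 and 379 CPM in library 1, with the same order in library 3, while in library 2 the last value, 226 CPM, was above the one before it, 182 CPM. Errfi1 had 1125, 824, 584 and 503 CPM in library 1 and 650, 645, 577 and 282 CPM in library 2. In library 3 it had 573, 593, 416 and 629 CPM, so cells with 3 or more set D genes lay above cells with 0. Thbs1 had 1220, 1081, 795 and 814 CPM in library 3, and was lower at each step in libraries 1 and 2. Fos showed no common order, with 1776, 4013, 3610 and 3266 CPM in library 1, and Actg2 was higher at each step in library 1 but not in libraries 2 and 3. The last class held 58, 54 and 12 cells in libraries 1, 2 and 3. Median depth within the range was still higher in cells with more set D genes (2004 UMIs at 0 and 2274 at 3 or more in library 1), and its part in the result was not tested.

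**Figure D5:**
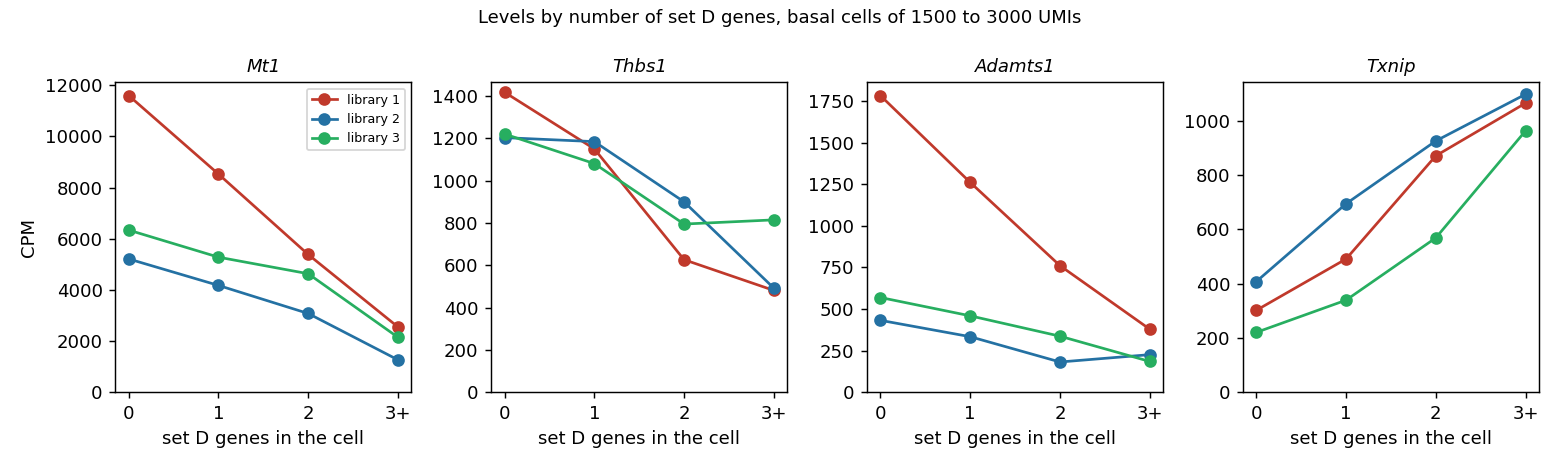
CPM of Mt1, Thbs1, Adamts1 and Txnip in basal cells of 1500 to 3000 UMIs with 0, 1, 2 and 3 or more set D genes, 1 line per library. Mt1 was lower and Txnip higher at each step in all 3 libraries, while Thbs1 in library 3 and Adamts1 in library 2 turned slightly at the last step, which held 12 cells in library 3.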

How the data were processed

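The authors deposited raw UMI counts per gene symbol and cell barcode, 1 table per 10x 3' v2 library, with no normalization. Per the submitters' processing notes, Cell Ranger 2.1.0 and mm10 were used, and neither annotation nor cell calling is described there. Barcodes with at least 500 genes and under 10% mitochondrial UMIs were kept, 26320 of 26845. Totals were 18584156, 27220670 and 30984706 UMIs in libraries 1, 2 and 3. Between libraries, 350 barcode sequences recurred, 2 of them in set D cells and none in set D cells of 2 libraries.

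UMIs were summed per library and class, scaled by TMM after edgeR's filter on low counts, and tested in edgeR 4.0.16 (R 4.3.3) with quasi-likelihood and the library as a block, two-sided. Benjamini-Hochberg adjustment ran over all genes tested, and a call needed an adjusted p below 0.05 and 1.5-fold. The 2 sums of a library come from 1 suspension, which is the pairing. Their deviations correlated at 0.291, 0.152 and 0.142 within libraries 1, 2 and 3, and at -0.261 to 0.0337 across libraries. CPM of set genes are scaled to the plain sum, and other CPM are TMM-normalised. The fits were checked on simulated data. Doublets were scored with Scrublet in scanpy 1.11.5 and stayed in, except in an alternative that left out 0.8% of cells per 1000 barcodes. In another alternative, UMIs drawn with probability 0.5 chose the cells and the rest measured them.

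The cells, gene sets and lists were chosen with earlier results of these data known. Named genes were the 6 set genes and up to 12 per direction with the largest fold change among calls that also passed with matched depth, kept 1 sign in 3 libraries, averaged 10 CPM in the higher class and had a proper symbol. Up to 4 called genes per list and 2 others with the highest level were added. Apart from markers of cell types and of dividing cells, the text says where a gene falls outside this rule.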

Additional observations from a re-analysis of the deposited data

How the results depend on the processing

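With few set D cells, counts of called genes moved with most settings while directions held. For set D cells against all other basal cells, 30 genes were called. The count was 19 at 2-fold, 8 with DESeq2 (which gave no adjusted p for 8282 genes), 46 with no filter on low counts, 15 without the highest doublet scores, 18 without cells with markers of other types, 10 with at least 3 set D genes, 78 for carriers with no competition between sets and 52 against basal cells that no set claimed, and without 1 library it ranged from 3 to 62. With no replicate block, which ignores that the 2 sums of a library are paired, 1 gene was called in this comparison and 1 against sets A, B and C. Against sets A, B and C, 18 genes were called. The count was 4 with DESeq2, 7 without the highest doublet scores, 9 without cells with markers of other types, 8 with 2 keratin UMIs asked, 10 with matched depth, 29 with 0.5 of the UMIs choosing the cells and 4 with at least 3 set D genes, and without 1 library it ranged from 2 to 41. The mean share of set D cells was 11.2% with no competition, 6.68% with no competition after thinning, and 0.576% to 2.54% without 1 library, against 1.83%. Csn1s2a turned to -0.24 with no competition, -0.79 without the highest doublet scores and -1.07 without library 2, and ranged up to 1.69 without library 3. Over the called genes named, 234 values kept their call, 207 kept their direction but not their call, and 3 turned, all of Csn1s2a. With DESeq2's size factors 4 of 29 calls were higher. The cause of these shifts was not tested.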
